A study of Mus musculus with 16 samples.

Results

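Wnt signalling was described through 10 mouse genes that span the route from the cell surface to the nucleus: the Frizzled receptors Fzd4 and Fzd7, the co-receptors Lrp5 and Lrp6, the secreted antagonists Dkk3, Sfrp1 and Sfrp2, the transducer Ctnnb1, the nuclear factor Tcf7l2 and the feedback target Axin2. They were taken by name, and all 10 were among the 11710 genes of the deposited count table and among the 11709 that were tested. Fzd4, Dkk3 and Sfrp2 were picked because their levels differed widely after surgery in these same samples. Their values, in the unoperated groups too since these entered that choice, are therefore given as a description with no test. The other 7 genes were not picked on a measured value, although they were proposed with earlier results of these data known.

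The study profiled rotator cuff muscle by RNA sequencing in C57BL/6J mice (BL6) and MRL/MpJ mice (MRL), a strain known for unusually complete healing of some wounds. In each strain an operated group, which underwent tenectomy (release of the tendon) together with denervation, was set beside unoperated controls, with 4 samples in each of the 4 groups. The muscle is infraspinatus by the series text but supraspinatus by the sample labels and is called rotator cuff muscle here. Age, sex and time after surgery are not given in the sources used here. Nothing in the labels says that samples came from separate animals, so p-values measure only the spread between these samples, which may be technical.

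Wnt proteins are secreted ligands that bind a Frizzled receptor together with Lrp5 or Lrp6. Binding stops the destruction complex, in which Axin proteins take part, from degrading beta-catenin, the product of Ctnnb1, which then enters the nucleus and works with T cell factors such as Tcf7l2. Secreted Frizzled-related proteins bind Wnts outside the cell, while Dkk proteins act mostly on the co-receptors. In skeletal muscle the pathway is known for roles in satellite cell behaviour, in neuromuscular junctions and in the fibrogenic and adipogenic turn of muscle-resident stromal cells.

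Total counts ran from 24323862 to 43552964 per sample, and the BL6 operated totals (26469749 to 31094642) all lay below the BL6 unoperated ones (33679319 to 43552964). Summed skeletal myofiber markers stood at 71931 to 226229 CPM (counts per 1000000, on libraries scaled by the trimmed mean of M values), and none of the 11 myofiber markers was at 0 in any sample. Fibroblast and endothelial marker sums set several libraries apart. BL6 operated replicate 4 had 9680 CPM of 10 fibroblast markers against 1990 to 3437 in the rest of its group. For the same markers MRL unoperated replicate 1 had 4186 against 2645 to 2744, and BL6 unoperated replicate 1 had 3110 against 1381 to 2018. MRL operated replicate 4 had 486 CPM of 10 endothelial markers against 1016 to 1246 in the rest of its group. Myofiber markers also set BL6 operated replicate 2 apart, at 208852 CPM against 71931 to 139695 CPM in the rest of its group. That sum lay within the unoperated BL6 range of 169961 to 226229 CPM. For members and for pathway genes given with their own values, the effect of leaving out 1 of these libraries is given below. It is given where the printed surgery fold moved by more than 1.5 times or the call changed. No such statement covers genes named only as called, or the Frizzleds beyond Fzd4 and Fzd7.

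Before the values, the DNA just upstream of 3 of the genes is shown because Fzd4 and Fzd7 are receptors with lower levels after surgery and Sfrp2 is the antagonist with the widest range of levels. Each run is the 250 bases before the RefSeq start site on the plus strand of GRCm38.p6, 5′ to 3′, and capitals mark GC box letters (GGGCGG, or CCGCCC where the box is on the other strand, overlapping matches included). The windows are chr7:89404116-89404365 for Fzd4, chr1:59481897-59482146 for Fzd7 and chr3:83766071-83766320 for Sfrp2.
Fzd4: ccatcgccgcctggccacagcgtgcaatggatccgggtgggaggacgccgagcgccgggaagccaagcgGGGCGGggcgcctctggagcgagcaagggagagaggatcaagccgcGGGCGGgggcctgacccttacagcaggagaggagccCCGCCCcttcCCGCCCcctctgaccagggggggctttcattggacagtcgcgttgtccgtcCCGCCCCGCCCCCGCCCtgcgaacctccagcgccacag
Fzd7: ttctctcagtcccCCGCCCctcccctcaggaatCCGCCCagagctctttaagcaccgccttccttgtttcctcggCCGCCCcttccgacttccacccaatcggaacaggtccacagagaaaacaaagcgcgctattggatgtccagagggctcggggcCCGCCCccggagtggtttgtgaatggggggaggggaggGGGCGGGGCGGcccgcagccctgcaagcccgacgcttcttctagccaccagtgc
Sfrp2: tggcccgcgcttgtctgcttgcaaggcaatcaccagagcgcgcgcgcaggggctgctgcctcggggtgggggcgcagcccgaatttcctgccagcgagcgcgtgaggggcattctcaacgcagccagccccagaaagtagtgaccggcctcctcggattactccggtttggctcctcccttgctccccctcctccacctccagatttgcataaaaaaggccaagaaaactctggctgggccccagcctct
The Fzd4 window held 7 GC box matches, the Fzd7 window 6 and the Sfrp2 window 0. Among the windows not shown, those of Tcf7l2 held 6 and 0, those of Ctnnb1 3 and 2, and that of Axin2 2. Match counts were not tested against the change with surgery. GGGCGG on either strand was present in 32.7% of 32851 mouse promoter windows of the same length. GC content was 72.8% for Fzd4, 65.2% for Fzd7 and 63.6% for Sfrp2, beside a median of 52.4% over all windows. The letters bound by T cell factors, searched as CTTTGAT or CTTTGAA on both strands, were in none of the 8 windows found for 6 of the 10 genes, Axin2 and Tcf7l2 included. Those letters were present in 7.48% of all windows. A match, or the lack of one, describes these letters in these windows only.

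**Figure D1:**
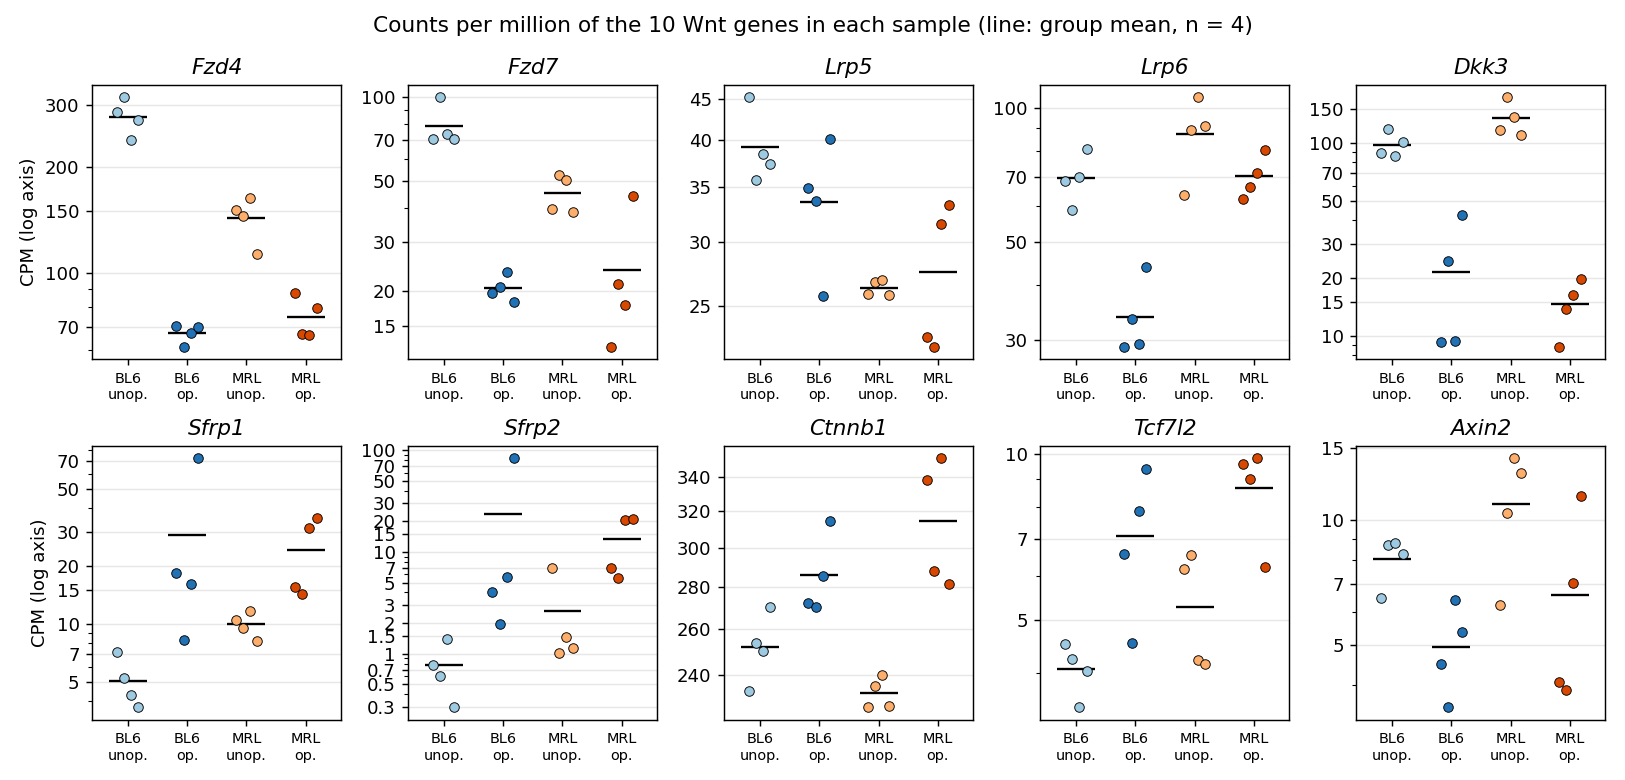
Level of each of the 10 genes in every sample, in CPM on a log axis that differs between panels; points are samples, coloured by strain and surgery, and lines are group means (n = 4). Fzd4 was at 238 CPM or more in unoperated BL6 muscle and at 87.2 CPM or less in both operated groups, and Sfrp2 reached 83.3 CPM in 1 BL6 operated library.

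Fzd4, the receptor for norrin as well as for Wnts and known for its part in blood vessel growth, was the most abundant Frizzled of unoperated muscle per length of transcript. The gene (ENSMUSG00000049791) lies on chromosome 7 at positions 89404355 to 89413134 of GRCm38, the mm10 build. Its level was 287, 315, 238 and 272 CPM in the unoperated BL6 samples and 70.6, 61.6, 67.4 and 70.2 CPM in the operated ones. In MRL it was 151, 145, 163 and 113 CPM without surgery and 87.2, 66.8, 66.5 and 79.1 CPM after it. Every operated sample of a strain lay below every unoperated one of that strain. The operated groups overlapped, with 2 of the 4 MRL samples above all BL6 samples. The operated mean was 0.243 times the unoperated mean in BL6 (log2 difference -2.04, SE 0.14) and 0.525 times in MRL (log2 difference -0.93, SE 0.13). The difference between these 2 log2 differences was 1.11 (SE 0.19), given without a test. As these are whole-muscle samples, fewer cells of a type and less RNA per cell cannot be told apart, here or below.

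Without surgery the Fzd4 mean was 143 ± 21.4 CPM in MRL (SD, n = 4) and 278 ± 32.2 CPM in BL6 (SD, n = 4), a ratio of 0.514. No unoperated MRL sample reached the lowest unoperated BL6 sample. The MRL value minus the BL6 value was -0.96 on the log2 scale (SE 0.13) without surgery and 0.15 after it. Neither is tested, because the unoperated levels were part of the change for which the gene was picked.

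Endothelial markers moved the other way from Fzd4 across surgery. Their summed level was 466 to 614 CPM in unoperated and 1022 to 1242 CPM in operated BL6 muscle, and 349 to 501 and 486 to 1246 CPM in MRL. Of the 10 markers, 8 rose in BL6 and 9 in MRL, Pecam1 (log2 fold change 1.28 in BL6 and 1.07 in MRL) and Cdh5 (1.09 and 1.27) among them, and none fell. Over all genes tested 35.1% rose and 32.8% fell in BL6, and 22.3% rose and 22.7% fell in MRL. These shares are the background of the marker and pathway list counts here and below. In MRL operated replicate 4, where the endothelial sum was 486 CPM, Fzd4 stood at 79.1 CPM, inside the range of its group. The part of these cells in the Fzd4 values was not tested.

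Fzd7, a Frizzled known as the satellite cell receptor for Wnt7a, fell after surgery in both strains. The gene (ENSMUSG00000041075) spans positions 59482424 to 59486955 of chromosome 1. Its level was 70.7, 99.95, 73.8 and 70.95 CPM in unoperated BL6 muscle and 19.8, 20.8, 23.5 and 18.3 CPM in operated BL6 muscle. MRL had 39.4, 52.4, 50.5 and 38.5 CPM without surgery and 12.6, 21.2, 17.9 and 43.96 CPM after it. The BL6 groups did not overlap, while in MRL operated replicate 4 stayed within the unoperated range. By edgeR's quasi-likelihood test the log2 fold change was -1.94 in BL6 (SE 0.28, adjusted p = 5.44e-05) and -0.91 in MRL (SE 0.28, adjusted p = 0.0153). Without MRL operated replicate 4 the MRL value was -1.39, and without MRL operated replicate 3 it was -0.80 with an adjusted p of 0.0548 by the same edgeR test. Summed satellite cell markers (6 of 8 in the table) were at 85.7 to 116 CPM in unoperated and 90.3 to 122 CPM in operated BL6 muscle, and at 82.3 to 91.3 and 77.5 to 108 CPM in MRL. Of those 6 markers 3 rose in BL6 (Chodl, Sdc4 and Vcam1) and 3 fell (Pax7, Cdh15 and Myod1). In MRL 2 rose (Chodl and Vcam1) and 2 fell (Cdh15 and Myod1). Their part in the Fzd7 result was not tested.

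In BL6 the pair kept a similar ratio while both were lower, whereas in MRL the ratio varied widely between operated samples. Fzd4 counts were 3.57 times those of Fzd7 on average in unoperated BL6 muscle and 3.31 times in operated BL6 muscle, and 3.18 and 3.89 times in MRL, where single operated samples ran from 1.80 to 6.90. In unoperated muscle the MRL level of Fzd7 was 0.574 times that of BL6 and the samples did not overlap, with -0.80 on the log2 scale (adjusted p = 0.0763, edgeR's quasi-likelihood test). DESeq2 called that difference (adjusted p = 0.0326), and edgeR did so without MRL operated replicate 1 or 4.

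Per length of merged exons, 8 Frizzled genes could be set side by side. Fzd4 made up 56.6% ± 3.44 of their summed CPM per kilobase in unoperated BL6 muscle and 24.7% ± 4.02 in operated BL6 muscle (SD, n = 4). In MRL its share was 44.5% ± 3.54 and 28.3% ± 4.90 (SD, n = 4). Fzd7 held 23.7% ± 1.66 and 11.2% ± 2.34 in BL6, and 20.9% ± 2.19 and 12.8% ± 5.32 in MRL (SD, n = 4). Fzd9 was at 9.81 CPM per kilobase before and 18.8 after surgery in BL6, and at 11.8 and 16.8 in MRL, the highest mean of the 8 genes in both operated groups. Fzd1, Fzd2, Fzd6 and Fzd9 rose in BL6, and of these Fzd6 also rose in MRL.

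Lrp6, the co-receptor whose cytoplasmic tail recruits Axin when a Wnt is bound, fell in BL6 and was the member that set the strains apart after surgery. It lies on chromosome 6 at 134446476 to 134566965 (ENSMUSG00000030201). Its level was 68.6, 58.8, 70.1 and 80.7 CPM in unoperated and 29.0, 33.4, 29.4 and 43.8 CPM in operated BL6 muscle. In MRL it was 63.5, 89.1, 106 and 91.1 CPM without surgery and 62.5, 66.3, 71.4 and 80.2 CPM after it. The BL6 groups were separate, the MRL groups overlapped, and every operated MRL sample lay above every operated BL6 sample. By edgeR's quasi-likelihood test the surgery effect was -1.03 in BL6 on the log2 scale (SE 0.16, adjusted p = 9.37e-05) and -0.32 in MRL (SE 0.16, adjusted p = 0.117). The MRL value was -0.44 without MRL unoperated replicate 1, with an adjusted p of 0.0328 by the same edgeR test.

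In operated muscle the mean Lrp6 level was 70.1 ± 7.67 CPM in MRL, 2.07 times that of BL6, which was 33.9 ± 6.90 CPM (SD, n = 4). edgeR's quasi-likelihood test gave a log2 fold change of 1.05 (SE 0.16, adjusted p = 0.000415), and leaving out any 1 library gave 0.97 to 1.20. The test of the difference between the 2 surgery effects themselves gave 0.72 on the log2 scale with an adjusted p of 0.186 by edgeR, which missed the threshold of 0.05. Without surgery the strains' Lrp6 samples overlapped, with a mean of 87.3 ± 17.5 CPM in MRL beside 69.5 ± 8.96 CPM in BL6 (SD, n = 4).

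Lrp5, the second co-receptor and best known for its role in bone mass, showed no called change with surgery. Lrp5 lies on chromosome 19 at 3584828 to 3686564 (ENSMUSG00000024913). BL6 levels were 45.2, 35.8, 38.5 and 37.5 CPM without surgery and 34.9, 33.7, 25.7 and 40.1 CPM after it. MRL levels were 25.9, 26.8, 27.0 and 25.8 CPM without surgery and 22.9, 22.3, 31.6 and 33.3 CPM after it. Operated and unoperated samples overlapped in both strains, with log2 fold changes of -0.22 in BL6 (SE 0.15) and 0.06 in MRL (SE 0.15). Unoperated MRL samples all lay below unoperated BL6 samples, with a log2 fold change of -0.57 (SE 0.15) and an adjusted p of 0.0181 by edgeR's quasi-likelihood test. That call was lost when libraries were scaled by total counts alone (-0.44, adjusted p = 0.201 by edgeR). It was also lost without BL6 unoperated replicate 1, MRL unoperated replicate 1 or MRL unoperated replicate 4, with edgeR adjusted p-values of 0.0596, 0.0508 and 0.0590.

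The ratio of the 2 co-receptors was higher in the MRL samples, a description given without a test. Lrp6 counts were 1.78 times those of Lrp5 in unoperated BL6 muscle (range over samples 1.52 to 2.15) and 1.01 times in operated BL6 muscle (0.831 to 1.14). In MRL the ratio was 3.31 (2.46 to 3.92) without surgery and 2.59 (2.26 to 2.97) after it. Each MRL sample had a higher ratio than any BL6 sample, narrowly so between operated MRL (lowest 2.26) and unoperated BL6 muscle (highest 2.15). Since both genes were counted in the same library, this ratio does not move with library scaling.

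Dkk3, a secreted Dickkopf family member that binds the usual Dickkopf co-receptors poorly, had the lowest operated-to-unoperated ratio of the 10 genes in both strains. It lies on chromosome 7 at 112116017 to 112159057 (ENSMUSG00000030772). BL6 levels were 88.5, 118, 85.7 and 101 CPM without surgery and 9.28, 24.3, 9.41 and 42.5 CPM after it. MRL levels were 117, 172, 137 and 110.1 CPM without surgery and 8.81, 13.8, 16.4 and 19.8 CPM after it. No operated sample reached an unoperated one in either strain, and the highest operated sample was BL6 replicate 4. The operated mean was 0.218 times the unoperated mean in BL6 (log2 difference -2.19, SE 0.40) and 0.110 times in MRL (log2 difference -3.18, SE 0.42). Without BL6 operated replicate 4 the BL6 difference was -2.78.

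Without surgery the Dkk3 mean was 134 ± 27.9 CPM in MRL beside 98.2 ± 14.5 CPM in BL6 (SD, n = 4), a difference of 0.45 on the log2 scale, and the samples overlapped. After surgery the MRL value minus the BL6 value was -0.54 on the log2 scale, and it was 0.046 without BL6 operated replicate 4.

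Sfrp1, a secreted Frizzled-related protein that binds Wnts and Frizzleds, rose in BL6. Sfrp1 lies on chromosome 8 at 23411502 to 23449632 (ENSMUSG00000031548). BL6 levels were 7.15, 5.24, 4.31 and 3.71 CPM without surgery and 18.4, 8.25, 16.2 and 72.6 CPM after it. MRL levels were 10.5, 9.56, 11.8 and 8.15 CPM without surgery and 15.5, 14.3, 31.7 and 35.4 CPM after it. All operated samples of a strain lay above all unoperated ones, and BL6 operated replicate 4 stood far above the others. By edgeR's quasi-likelihood test the log2 fold change was 2.51 in BL6 (SE 0.53, adjusted p = 0.000806) and 1.28 in MRL (SE 0.51, adjusted p = 0.0511). Without BL6 operated replicate 4, edgeR gave 1.48 in BL6 (adjusted p = 0.00185) and 1.29 in MRL (adjusted p = 0.00464) with the spread shared over all 4 groups. The MRL change was also called by edgeR without BL6 operated replicate 2 (adjusted p = 0.0250) or MRL operated replicate 2 (adjusted p = 0.0427). DESeq2 called it too (adjusted p = 0.0223), and the authors' deposited table gives it a log2 fold change of 1.56 with a false discovery rate of 0.00471.

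Sfrp2, its close relative and a product of fibroblasts in many tissues, was low without surgery and far higher in single operated libraries. Sfrp2 sits on chromosome 3 at 83766321 to 83774316 (ENSMUSG00000027996). BL6 levels were 0.781, 0.598, 1.40 and 0.298 CPM without surgery, from 11 to 53 counts, and 4.08, 1.98, 5.73 and 83.3 CPM after it. MRL levels were 6.94, 1.02, 1.45 and 1.14 CPM without surgery and 7.02, 5.48, 20.4 and 21.2 CPM after it. In BL6 the groups did not overlap, but 1 operated library held 2928 counts and the other 3 held 51 to 160. In MRL, unoperated replicate 1 stood with the lower operated samples.

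The Sfrp2 averages rest on those 2 libraries. The log2 difference with surgery was 4.95 in BL6 (SE 1.16) and 2.34 without BL6 operated replicate 4. In MRL it was 2.37 (SE 1.01) and 3.51 without MRL unoperated replicate 1. The MRL difference minus the BL6 difference was therefore -2.58 with all libraries, 0.030 without BL6 operated replicate 4 and 1.17 without both libraries. The authors' deposited table gives log2 fold changes of 2.61 in BL6 and 3.81 in MRL for Sfrp2, the reverse order of those found here with all libraries. Between unoperated strains the MRL value minus the BL6 value was 1.76, and 0.63 without MRL unoperated replicate 1.

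The mean fibroblast and tendon cell marker sums were higher after surgery in both strains, as were the means of Sfrp2 and Sfrp1. The fibroblast sums of operated and unoperated samples overlapped in both strains. The summed fibroblast level was 1381 to 3110 CPM in unoperated and 1990 to 9680 CPM in operated BL6 muscle, and 2645 to 4186 and 2922 to 5847 CPM in MRL. In BL6 5 of 10 fibroblast markers rose, Col1a1, Col1a2, Col3a1, Dpt and Pi16, while in MRL 0 of 10 passed the test. The 2 defining markers, Pdgfra (log2 fold change 0.23 in BL6 and 0.25 in MRL) and Dcn (0.32 and 0.24), did not pass it in either strain. Tendon cell markers (7 of 8 in the table) summed to 87.1 to 125 CPM and 277 to 1234 CPM in BL6, and 102 to 324 and 251 to 637 CPM in MRL, with 6 of 7 higher in BL6 and 3 of 7 in MRL. BL6 operated replicate 4 held the highest value of both sums and MRL unoperated replicate 1 the highest of its group. Macrophage marker sums were also the highest of their group in these 2 libraries, at 502 CPM and 293 CPM. No fibroblast or tendon cell marker was at 0 in any sample. The part of these cell types in the Sfrp1 and Sfrp2 results was not tested.

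**Figure D2:**
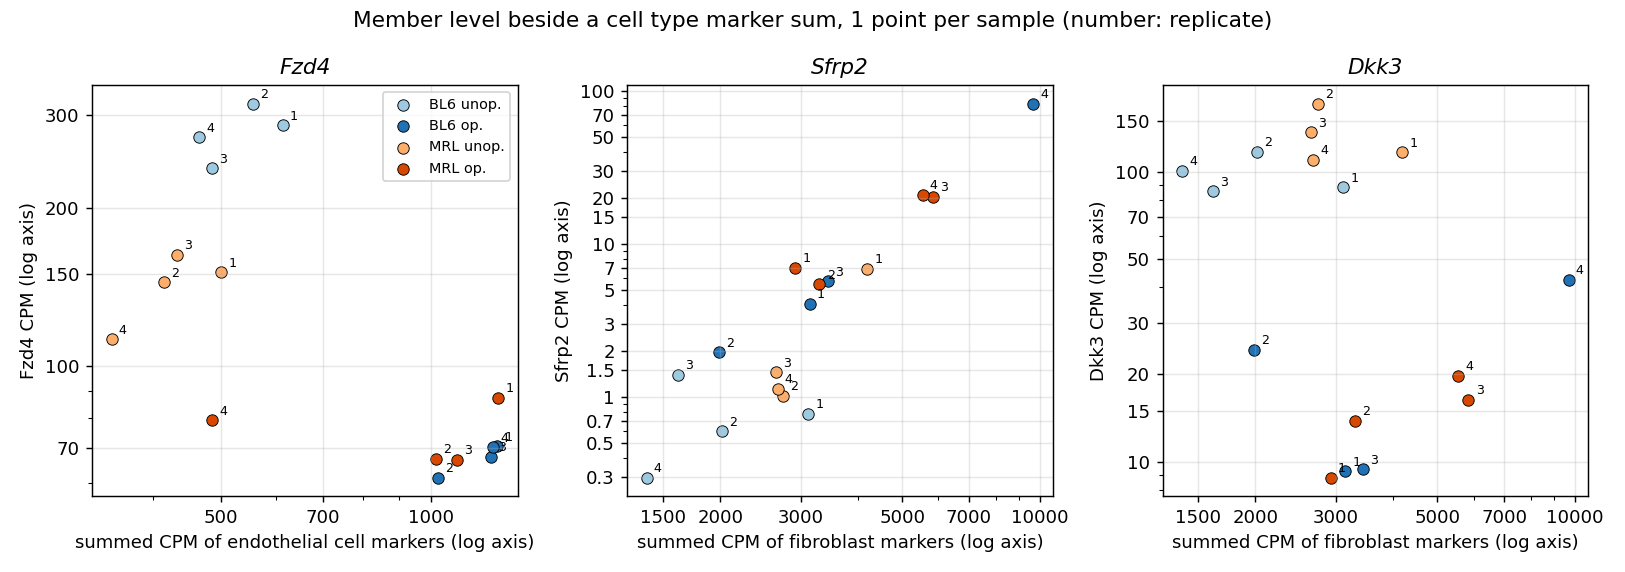
Level of Fzd4 beside summed endothelial markers, and of Sfrp2 and Dkk3 beside summed fibroblast markers, both axes in CPM on log scales; each point is a sample, numbered by replicate and coloured by strain and surgery. Sfrp2 reached 83.3 CPM in the library with the highest fibroblast sum, 9680 CPM, whereas Dkk3 was at 42.5 CPM there, below all unoperated samples.

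Sfrp2 ran from 0.157 times the Sfrp1 counts on average in unoperated BL6 muscle to 0.490 times in operated BL6 muscle, and from 0.258 to 0.520 times in MRL. BL6 operated replicate 4 alone had more Sfrp2 than Sfrp1 counts, at a ratio of 1.15. The other secreted antagonists in the table, Sfrp4, Sfrp5, Frzb and 1 more of 13 listed, are given with the pathway genes below.

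Ctnnb1, which encodes beta-catenin, an adhesion protein as well as the pathway's transducer, had the highest level per length of the 10 genes in every group. It lies on chromosome 9 at 120929216 to 120960507 (ENSMUSG00000006932). BL6 levels were 233, 254, 250.3 and 270.2 CPM without surgery and 273, 270.3, 286 and 315 CPM after it. MRL levels were 227, 235, 240.1 and 227 CPM without surgery and 338, 288, 351 and 282 CPM after it. The operated samples lay above the unoperated ones in both strains, narrowly in BL6. The gene rose in MRL (log2 fold change 0.44, SE 0.10, adjusted p = 0.00459 by edgeR's quasi-likelihood test), and in BL6 the value was 0.18 (SE 0.10, adjusted p = 0.125 by edgeR).

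Tcf7l2, the T cell factor family member most studied in stromal cells of muscle, rose in both strains from a low level. Tcf7l2 sits on chromosome 19 at 55741820 to 55933654 (ENSMUSG00000024985). BL6 levels were 4.51, 4.24, 3.46 and 4.03 CPM without surgery and 6.58, 4.53, 7.87 and 9.41 CPM after it. MRL levels were 6.17, 6.54, 4.23 and 4.14 CPM without surgery and 9.58, 9.02, 9.83 and 6.24 CPM after it. The BL6 groups were separate by a narrow gap and the MRL groups overlapped through 1 operated sample. By edgeR's quasi-likelihood test the log2 fold change was 0.81 in BL6 (SE 0.22, adjusted p = 0.00504) and 0.71 in MRL (SE 0.22, adjusted p = 0.0178). The MRL call was lost with total count scaling (adjusted p = 0.0510 by edgeR) and without MRL unoperated replicate 3, MRL unoperated replicate 4 or MRL operated replicate 3, where edgeR gave 0.62, 0.61 and 0.65 on the log2 scale with adjusted p-values of 0.0593, 0.0596 and 0.0554.

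Axin2, a scaffold of the destruction complex that the pathway itself induces and that is widely read as a sign of beta-catenin activity, was lower on average after surgery in both strains, on the edge of the test. Axin2 lies on chromosome 11 at 108920349 to 108950783 (ENSMUSG00000000142). BL6 levels were 6.49, 8.74, 8.80 and 8.28 CPM without surgery and 4.48, 3.53, 6.41 and 5.37 CPM after it. MRL levels were 6.24, 10.4, 14.2 and 13.0 CPM without surgery and 4.06, 3.88, 7.07 and 11.5 CPM after it. The BL6 groups just missed each other and the MRL groups overlapped. By edgeR's quasi-likelihood test the log2 fold change was -0.71 in BL6 (SE 0.32, adjusted p = 0.0631) and -0.72 in MRL (SE 0.32, adjusted p = 0.0747). DESeq2 placed both just past the threshold (adjusted p = 0.0469 and 0.0481), and the authors' deposited table gives false discovery rates of 0.134 in BL6 and 0.0464 in MRL. The edgeR call changed when single libraries were left out. In BL6 Axin2 passed without BL6 operated replicate 3, MRL unoperated replicate 1, MRL operated replicate 2 or MRL operated replicate 4 (edgeR adjusted p = 0.0471, 0.0473, 0.0492 and 0.0265). In MRL it passed without MRL unoperated replicate 1 (-0.90, edgeR adjusted p = 0.0288) and without MRL operated replicate 4, which had the highest operated level (-1.13, edgeR adjusted p = 0.00501).

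**Figure D3:**
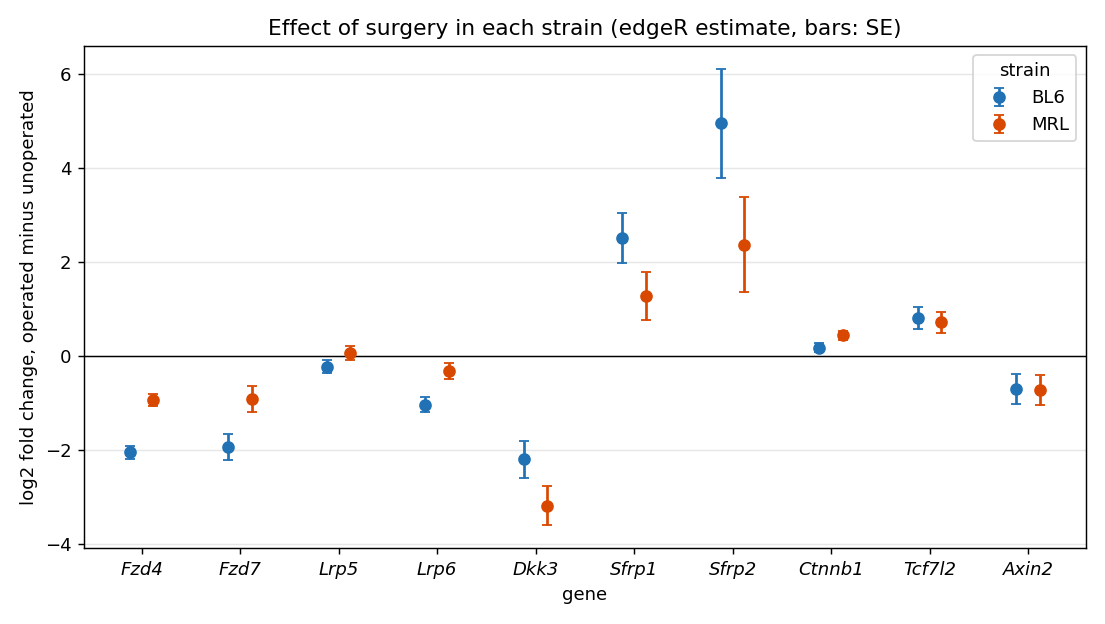
Log2 fold change of each of the 10 genes between operated and unoperated muscle, BL6 in blue and MRL in orange; points are edgeR estimates and bars their standard errors (n = 4 per group). Fzd4, Fzd7 and Dkk3 lie below 0 in both strains, Sfrp1 and Sfrp2 above 0, and the bar of Sfrp2 in BL6 (4.95, SE 1.16) is the widest.

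Among the 7 genes not chosen on surgery, 4 passed the test in BL6, where 67.9% of all genes tested were called, 35.1% upward and 32.8% downward. Sfrp1 and Tcf7l2 rose, and Fzd7 and Lrp6 fell. The 7 genes did not stand above that background. In MRL 3 of the 7 passed, Ctnnb1 and Tcf7l2 upward and Fzd7 downward, against 45% of all genes, 22.3% upward and 22.7% downward. Operated and unoperated samples did not overlap for 6 of the 7 genes in BL6, beside 56.8% of all genes, and for 2 of the 7, Sfrp1 and Ctnnb1, in MRL, beside 33.7%. The median log2 fold change over all genes was 0.04 in BL6 and 0.01 in MRL.

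The direct test of whether surgery acted differently in the strains called 0 of the 7 genes by edgeR's quasi-likelihood test and 0 by DESeq2, where edgeR called 0.248% of all genes. At an unadjusted p under 0.05 there were 2 of the 7, Lrp6 and Fzd7, beside 1843 of all genes. The Fzd7 estimate was 1.02 on the log2 scale, with an adjusted p of 0.242 by edgeR. For Ctnnb1, called in MRL and not in BL6, the difference was 0.26 with an adjusted p of 0.386 by edgeR. For Axin2 it was -0.02 and for Tcf7l2 -0.09.

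Between unoperated strains 1 of the 7 was called, Lrp5, lower in MRL, where 10.4% of all genes were called and 5.36% were lower. The samples did not overlap for 3 of the 7 (Fzd7 and Lrp5 lower and Sfrp1 higher in MRL), beside 25.1% of all genes. Sfrp1 stood at 9.99 ± 1.52 CPM in MRL beside 5.10 ± 1.5 CPM in BL6 (SD, n = 4), with an adjusted p of 0.270 by edgeR's quasi-likelihood test. Between operated strains 1 of the 7 was called, Lrp6, where 12.9% of all genes were called and 7.6% were higher in MRL, and it was also the only 1 of the 7 whose samples did not overlap, beside 13.6% of all genes.

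Divided by the length of merged exons, the levels of the 10 genes could be ordered within each group. In unoperated BL6 muscle Ctnnb1 (48.5 CPM per kilobase) and Fzd4 (41.4) overlapped at the top, followed by Dkk3 (29.2) and Fzd7 (17.4), each apart from its neighbours. Lrp6 (5.08) and Lrp5 (4.03) overlapped, as did Axin2 (1.47) and Sfrp1 (1.17), and Tcf7l2 (0.463) and Sfrp2 (0.357). After surgery in BL6 Ctnnb1 (55.1) stood alone. Below it Sfrp2 (11.03), Fzd4 (10.04), Sfrp1 (6.601), Dkk3 (6.36), Fzd7 (4.54), Lrp5 (3.45) and Lrp6 (2.48) each overlapped the next in order, and Axin2 (0.898) and Tcf7l2 (0.809) came last.

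In unoperated MRL muscle Ctnnb1 (44.8 CPM per kilobase) overlapped with Dkk3 (39.9), and Fzd4 (21.2), Fzd7 (9.98) and Lrp6 (6.39) followed as separate steps. Lrp5 (2.71), Sfrp1 (2.29), Axin2 (1.99), Sfrp2 (1.23) and Tcf7l2 (0.601) each overlapped the next in order. After surgery in MRL Ctnnb1 (60.6) and Fzd4 (11.1) stood alone, and Sfrp2 (6.28), Sfrp1 (5.54), Fzd7 (5.28), Lrp6 (5.13), Dkk3 (4.38) and Lrp5 (2.83) overlapped in a chain above Axin2 (1.20) and Tcf7l2 (0.988). Dkk3 thus moved from the second place in MRL and the third in BL6 into the middle of the order.

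The genes whose profile over the 16 samples was most like that of a member were found by Pearson's r of log2 CPM among 9627 genes with a mean of 5 CPM or more. For Fzd4 these were Sc5d (r = 0.961), an enzyme of cholesterol synthesis, Tyw1 (0.958), which modifies transfer RNA, and Dusp10 (0.954), a phosphatase of stress kinases. Dusp10 went from 129 to 22.8 CPM with surgery in BL6 and from 79.2 to 31.5 CPM in MRL, group means of 4 samples. For Dkk3 they were Tiam1 (0.959), an activator of Rac, Ighm (0.959), the immunoglobulin M heavy chain, and Rnf126 (0.954), a ubiquitin ligase. For Sfrp2 they were Thbs2 (0.986), a matrix glycoprotein, Ptn (0.975), a heparin-binding growth factor, and Pygb (0.975), a glycogen phosphorylase. Thbs2 went from 8.62 to 58.0 CPM in BL6 and from 15.6 to 43.2 CPM in MRL. The samples share 4 groups and the same libraries, so these values describe likeness of profile and nothing more.

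A wider list of 119 Wnt pathway genes, of which 78 were in the table and tested, gives the surroundings of the 10 genes. Surgery changed 55 of the 78 in BL6, 28 upward and 27 downward (70.5%, against 67.9% of all genes), and 40 in MRL, 16 upward and 24 downward (51.3%, against 45%). The median log2 fold change of the list was 0.07 in BL6 and -0.06 in MRL. The list as a whole leaned neither way in BL6. The counts of its parts below stand beside 35.1% of all genes higher and 32.8% lower in BL6, and 22.3% and 22.7% in MRL. No part was tested against these shares. For the difference between strains, edgeR called 0 of 78, with 12 at an unadjusted p under 0.05 beside 1843 of all 11709 genes, and DESeq2 called 1. Between unoperated strains 8 were called, 6 higher and 2 lower in MRL, 10.3% of the list beside 10.4% of all genes. Between operated strains 8 were called, all higher in MRL, 10.3% beside 12.9% of all genes, of which 7.6% were higher.

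Among Wnt ligands 6 of 19 were measured. Wnt4, Wnt5a and Wnt9a fell in both strains, and Wnt10b, known to hold back fat formation, rose in BL6. Wnt4 went from 30.8 ± 10.2 to 11.8 ± 8.64 CPM in BL6 and from 14.1 ± 1.29 to 5.88 ± 1.83 CPM in MRL (SD, n = 4), log2 fold changes of -1.39 and -1.26. The BL6 value was -2.04 without BL6 operated replicate 2, which had 24.6 CPM against 6.03 to 8.63 CPM in the rest of its group and the highest summed myofiber markers of that group (208852 CPM against 71931 to 139695). Its MRL call was lost without MRL operated replicate 1 (-1.11, adjusted p = 0.0509 by edgeR). Wnt5a, a ligand of the beta-catenin independent branches, changed by -0.83 in BL6 and -1.06 in MRL, and by -1.24 in BL6 without BL6 operated replicate 4. Its BL6 call was lost with total count scaling (-0.60, adjusted p = 0.146 by edgeR). In BL6 Wnt10b was at 0.704 ± 0.174 and 4.94 ± 5.42 CPM (SD, n = 4). Its log2 fold change there was 2.81, and 1.70 without BL6 operated replicate 4, and limma voom gave it an adjusted p of 0.0520. In MRL Wnt10b was at 2.63 ± 1.10 and 6.65 ± 3.98 CPM (SD, n = 4), with an adjusted p of 0.1001 by edgeR, which fell to 0.0359 without BL6 operated replicate 4 and to 0.0464 without MRL operated replicate 2. Rspo1, a secreted enhancer of Wnt signalling, was 1 of 3 measured genes of 7 for other ligands and Wnt secretion. It was called higher after surgery in BL6 (1.68 on the log2 scale, and 1.05 without BL6 operated replicate 4). That call rests on low levels that overlapped, 0.180 to 0.661 CPM without surgery (6 to 25 counts) and 0.426 to 2.47 CPM after it.

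Of the other receptors and co-receptors 13 of 20 were measured, of which 5 rose and 5 fell in BL6, and 2 rose and 4 fell in MRL. The R-spondin receptors Lgr4 and Lgr6, the Wnt co-receptor Ryk and the Frizzled-degrading ligase Znrf3 fell in both strains. The log2 fold change of Lgr6 was -2.18 in BL6 and -1.70 in MRL. Lgr4 went from 40.2 ± 1.22 to 13.1 ± 2.68 CPM in BL6 and from 29.2 ± 3.47 to 19.9 ± 5.99 CPM in MRL (SD, n = 4). Its MRL call (-0.56) was lost without MRL unoperated replicate 3 or MRL operated replicate 3. Lgr4, Znrf3 and Tspan12, a tetraspanin that works with Fzd4, were higher in operated MRL than in operated BL6 muscle. Ptk7, a planar polarity receptor, rose in BL6 by 1.58, but by 0.49 with an adjusted p of 0.315 (edgeR) without BL6 operated replicate 4, and its call was also lost without BL6 unoperated replicate 1 or 4, with limma voom and with only the groups compared. In MRL Ptk7 passed without BL6 operated replicate 4 (1.15, edgeR adjusted p = 0.0196).

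Of the other extracellular antagonists 4 of 13 were measured. Frzb, a secreted Frizzled-related protein of cartilage and muscle, fell in both strains, from 5.68 ± 0.619 to 2.475 ± 0.862 CPM in BL6 and from 24.0 ± 3.55 to 10.6 ± 4.49 CPM in MRL (SD, n = 4). Its log2 fold changes were -1.19 and -1.17, and it was called higher in MRL than in BL6 both with and without surgery. Sfrp4 and Sfrp5 rose in BL6 by 2.78 and 1.12 on the log2 scale. BL6 operated replicate 4 had 12.8 CPM of Sfrp4 against 1.55 to 3.65 CPM in the rest of its group, and the Sfrp4 value was 1.88 without it. In MRL their values were 0.96 and 0.84 and did not pass the test, though Sfrp5 did with DESeq2 and without BL6 operated replicate 2, MRL unoperated replicate 1 (1.15) or MRL operated replicate 4 (1.07). The secreted Frizzled-related genes thus did not move as a group: Frzb fell where Sfrp1, Sfrp4 and Sfrp5 rose in BL6.

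Inside the cell, 23 of 24 cytoplasmic transducers were measured, of which 5 rose and 10 fell in BL6, and 4 rose and 10 fell in MRL. In either direction, 67.9% of all genes were called in BL6 and 45% in MRL. Both Gsk3a and Gsk3b, the kinases that mark beta-catenin for degradation, fell in both strains, as did Btrc and Fbxw11, which recognise the marked protein. Frat2, an inhibitor of those kinases, changed by -1.61 and -1.44 on the log2 scale. Dact3 (2.24 and 1.49) and Nkd1 (1.84 and 1.03), antagonists that act through Dishevelled, rose. In BL6 the Dact3 value was 1.56 without BL6 operated replicate 4, which had 18.5 CPM against 2.75 to 8.38 CPM in the rest of its group. The MRL call of Dact3 was lost without MRL operated replicate 3, and that of Nkd1 without MRL unoperated replicate 2, 3 or 4, or MRL operated replicate 1 or 3, and with total count scaling.

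Of 14 measured nuclear factors among 16 listed, 4 rose and 5 fell in BL6, and 2 rose and 4 fell in MRL. The corepressor Tle4 changed by -1.06 and -0.99 on the log2 scale. Ep300, an acetyltransferase and coactivator, changed by -1.35 and -0.63, from 57.4 to 22.5 CPM in BL6 and from 45.7 to 29.5 CPM in MRL (means, n = 4). Tcf7l1, the mostly repressive T cell factor, rose beside Tcf7l2, by 1.13 in BL6 and 0.58 in MRL. The MRL call of Tcf7l1 was lost in 8 of the 16 omissions of a single library (BL6 unoperated replicates 1, 2 and 3, BL6 operated replicate 1, MRL unoperated replicates 2, 3 and 4, and MRL operated replicate 3), and the estimate was 0.32 without MRL operated replicate 3. It was also lost with total count scaling, limma voom and only the groups compared.

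Most listed target genes rose, whereas Axin2 was lower on average without passing the edgeR test. Of 10 listed, 8 were measured, and 6 rose and 1 fell in BL6, and 5 rose and 0 fell in MRL. Their median log2 fold changes were 1.57 and 0.998. Over all genes 35.1% rose and 32.8% fell in BL6, and 22.3% rose and 22.7% fell in MRL. These counts depend on which genes were listed as targets. Wisp2, also called Ccn5 and made by stromal cells, went from 1.83 to 15.0 CPM in BL6 and from 2.06 to 8.97 CPM in MRL (means, n = 4), log2 fold changes of 3.04 and 2.12. BL6 operated replicate 4 had 34.9 CPM of Wisp2 against 3.72 to 11.5 CPM in the rest of its group, and the BL6 value was 2.19 without it. Ccnd1, a cyclin of the G1 phase with many inputs besides Wnt, went from 10.9 to 37.5 CPM and from 14.8 to 36.6 CPM (means, n = 4). Wisp1 rose in BL6 by 2.85, or 1.55 without BL6 operated replicate 4. In MRL Wisp1 did not pass the test, at 1.14, or 1.88 without MRL unoperated replicate 1. Bambi, Cd44 and Lbh rose in both strains, and Tnfrsf19 fell in BL6. Beside these, macrophage markers summed to 31.5 to 88.9 CPM in unoperated and 74.3 to 502 CPM in operated BL6 muscle, and to 64.4 to 293 and 111 to 221 CPM in MRL, with 7 of 10 higher in BL6 and 1 of 10 in MRL. Their part in the target gene results was not tested.

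Of the planar polarity genes 7 of 10 were measured, of which 4 rose and 2 fell in BL6, and 3 rose and 2 fell in MRL. Vangl1 (1.23 and 0.90 on the log2 scale) and Prickle2 (0.96 and 1.08) rose, and Celsr2 (-1.88 and -0.99) fell. The MRL call of Vangl1 was lost without MRL operated replicate 3.

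**Figure D4:**
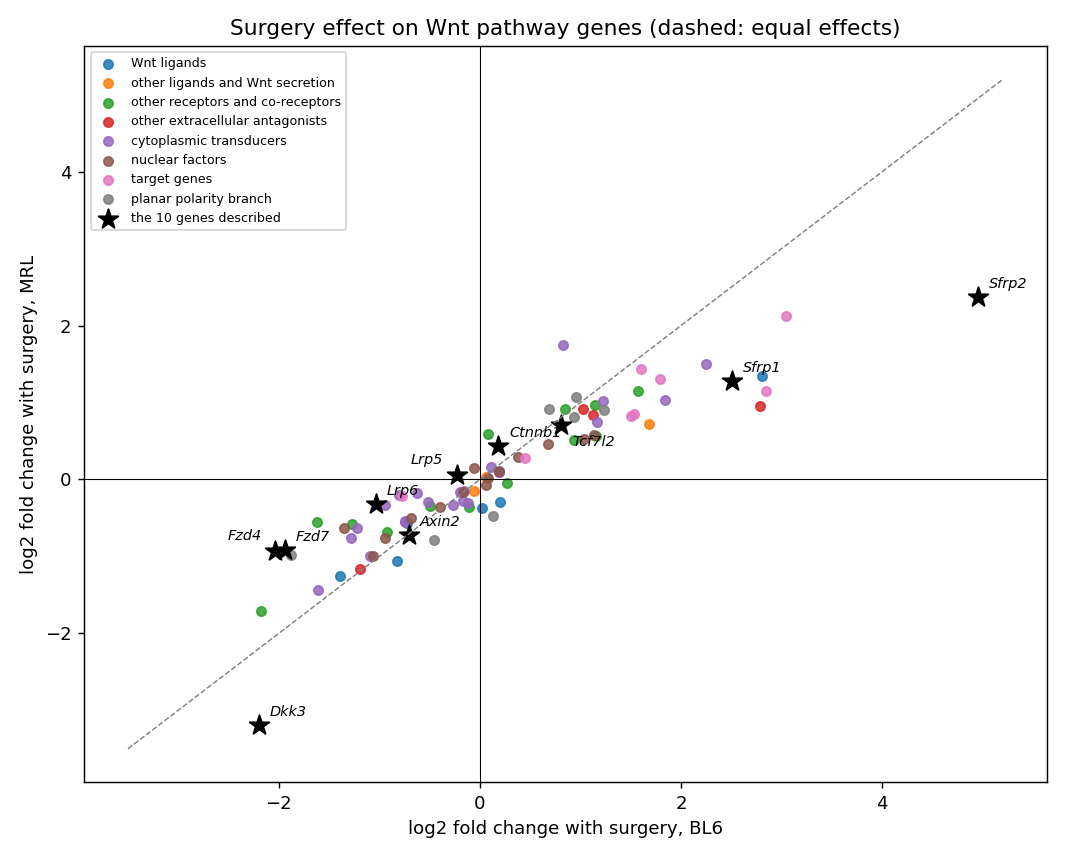
Log2 fold change with surgery in MRL against that in BL6 for the 78 other Wnt pathway genes, coloured by their list, and for the 10 genes described (stars); the dashed line marks equal effects. Dkk3 (-2.19 in BL6 and -3.18 in MRL) and Sfrp2 (4.95 and 2.37) lie farthest out, and both were chosen for their large changes.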

How the data were processed

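RNA from 16 rotator cuff muscle samples was sequenced, and the authors deposited 1 table of raw counts per gene with a second table of their own comparisons, holding log2 average CPM, log2 fold changes, p-values and false discovery rates. FastQC, STAR, edgeR and the build mm10 are named per the submitters' processing notes, while the counting tool, annotation and strand setting are not given in the sources used here. Reads shared by overlapping or antisense genes therefore cannot be told apart. No deposited column of a sample went unused. Of 11710 gene identifiers, 11708 were found in GENCODE M21 (GRCm38), which supplied positions and merged exon lengths, and promoter sequences came from RefSeq on GRCm38.p6.

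From the counts, genes were filtered with filterByExpr (minimum count 10), libraries scaled by TMM and 1 mean per group fitted over all 16 samples with edgeR 4.0.16 (R 4.3.3, limma 3.58.1), whose quasi-likelihood test was used for 5 contrasts: surgery in each strain, their difference, and the strains without and with surgery. Pooling the groups gives 1 shared estimate of spread. P-values were adjusted by Benjamini-Hochberg over all 11709 genes tested, and called means an adjusted p under 0.05. CPM use the TMM-scaled libraries, and log2 CPM for likeness of profile used a prior count of 2. The fit was tested on simulated data with known changes. Alternatives were DESeq2 1.42.0, limma voom, other scalings and filters, fits to the compared groups only, a replicate block and leaving out each library. One more, leaving out 2 libraries together, was chosen after seeing the data.

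The members and lists were chosen with earlier results of these data known. For Fzd4, Dkk3 and Sfrp2 no contrast is given a test, that between unoperated strains included, since their unoperated values entered the choice. Named beyond the 10 genes are, per pathway list, the 3 with the largest mean absolute log2 fold change of both surgery effects among those called in a strain, the 3 genes most alike in profile to Fzd4, Dkk3 and Sfrp2, and the first 2 markers of a list. Genes named only as called in a list's count, and all Frizzleds, are exceptions chosen after their values were seen. All pairs of samples of a group differed beyond sampling noise, so 16 samples were counted.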

Additional observations from a re-analysis of the deposited data

Results flagged for a closer look

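Each of the 10 genes was examined in each of the 4 groups, and in 4 of these 40 sets of 4 samples 1 sample lay far from the other 3, by Dixon's ratio of the gap to the range at its 95% critical value. Chance marks about 1 set in 20 in this way where values are normally distributed, which was not checked for these CPM. The sets also share libraries. Sfrp2 was at 83.3 CPM in BL6 operated replicate 4 against 1.98 to 5.73 CPM in the rest of its group, and Sfrp1 was at 72.6 CPM in the same library against 8.25 to 18.4 CPM. Sfrp2 was at 6.94 CPM in MRL unoperated replicate 1 against 1.02 to 1.45 CPM in the rest. Fzd7 was at 99.95 CPM in BL6 unoperated replicate 2 against 70.7 to 73.8 CPM. Both libraries with a distant Sfrp2 value also had the highest fibroblast marker sum of their group, at 9680 and 4186 CPM. They had the highest macrophage marker sum of their group as well. It was 502 CPM against 74.3 to 137 CPM in BL6 operated muscle, and 293 CPM against 64.4 to 74.6 CPM in MRL unoperated muscle. The part of either cell type was not tested.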

How the results depend on the processing

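Of 1240 values of the 10 genes under alternatives, 1178 kept their direction and side of the threshold (or, untested, moved by less than the spread), 9 lost a call, 26 gained one, 5 untested ones moved and 22 changed sign. Of 1092 pathway gene values 1045 held, 32 lost a call and 15 gained one.

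Members called with surgery in MRL (3) became 5 with DESeq2, 6 without BL6 operated replicate 4 and MRL unoperated replicate 1 together, and 1 to 5 leaving out 1 library, while in BL6 (4) there were 4 to 5. Members called between unoperated strains (1 of 7) became 0 with total counts alone, 2 with DESeq2, 3 with only the groups compared, 2 without the 2 libraries together and 0 to 2 leaving out 1 library (0 without BL6 unoperated 1, MRL unoperated 1 or MRL unoperated 4), and between operated strains (1) stayed at 1 to 1. Other Wnt genes called ranged over single omissions from 50 to 56 in BL6, 25 to 47 in MRL, 4 to 12 between unoperated and 4 to 12 between operated strains, and 0 to 1 for the strain difference in surgery effect (1 with DESeq2). They numbered 18 between unoperated strains with only the groups compared, and between operated strains 2 with only the groups compared, 13 with DESeq2 and 13 without the 2 libraries together. Over all genes, single omissions gave 7189 to 8177 calls in BL6, 3490 to 6145 in MRL (3490 without MRL operated replicate 3), 821 to 1572 between unoperated and 1030 to 1842 between operated strains, and 1 to 69 for the strain difference in surgery effect. With only the groups compared there were 2438 between unoperated and 575 between operated strains. The 29 calls of the strain difference in surgery effect became 14 with total counts alone and 250 with DESeq2.

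Signs turned as follows, all without a call on either side. Over single omissions, the difference between operated strains ran from -0.26 to 0.43 for Fzd7 (-0.26 without MRL operated replicate 4), from -0.79 to 0.046 for Dkk3 and from -0.56 to 0.77 for Sfrp1 (both turned without BL6 operated replicate 4). Without BL6 operated replicate 4 and MRL unoperated replicate 1 together, Dkk3 was 0.046 and Sfrp1 0.77, and Sfrp1 was 0.089 with voom. The untested value for Sfrp2 between operated strains, -0.82, became 0.38 with voom and 1.79 without BL6 operated replicate 4. The strain difference in surgery effect ran from -3.04 to 0.030 for Sfrp2 (1.17 without the 2 libraries, -1.03 with voom), from -0.42 to 0.17 for Axin2 and from -0.26 to 0.079 for Tcf7l2 (0.17 without the 2). Lrp5 with surgery in MRL ran from -0.042 to 0.15, and Ctnnb1 between unoperated strains was 0.027 with total counts alone. The cause was not tested.

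Total counts alone moved the median of all genes from 0.04 to 0.18 for surgery in BL6, and between unoperated strains from 0.01 to 0.15, with 742 higher and 313 lower calls in place of 588 and 628. Between operated strains the split went from 890 and 617 to 994 and 383.

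The deviations of same-numbered samples had a mean correlation of 0.0427 (from -0.141 between the BL6 groups to 0.165 between the operated groups). For samples of different number it was -0.00918. A correlation over all genes cannot exclude a pairing or a batch shared by number, which was not tested further. With a replicate block the calls were 7930 in BL6, 5197 in MRL, 1146 between unoperated and 1354 between operated strains, and 2 for the strain difference in surgery effect. Axin2 was called under the block in BL6 (-0.74, edgeR adjusted p = 0.0151) and MRL (-0.77, edgeR adjusted p = 0.0199). Sfrp2 in unoperated BL6 muscle rests on 11 to 53 counts a library, which limits its fold changes.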

Other observations

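The other marker lists describe the muscle in which the Wnt genes were measured. Beside their counts, 35.1% of all genes rose and 32.8% fell in BL6, and 22.3% rose and 22.7% fell in MRL. Adipocyte markers (6 of 7 in the table) all rose in both strains, with a sum of 214 to 286 CPM without surgery and 1229 to 1714 CPM after it in BL6, and of 269.9 to 380.1 and 1128 to 1924 CPM in MRL. Schwann cell markers (5 of 6) summed to 52.8 to 69.8 and 133 to 331 CPM in BL6, where 5 rose, and to 37.4 to 82.5 and 57.4 to 222 CPM in MRL, where 3 rose. Mural cell markers (8) summed to 782 to 855 and 871 to 1328 CPM in BL6, with 6 higher and 1 lower, and to 570 to 694 and 837 to 1260 CPM in MRL, with 5 higher and 1 lower. Skeletal myofiber markers (11) summed to 169961 to 226229 and 71931 to 208852 CPM in BL6, with 1 higher and 5 lower, and to 155995 to 172398 and 102076 to 135336 CPM in MRL, with 4 lower. The edgeR test of the strain difference in surgery effect called no marker of the 9 lists.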
